A study of Gallus gallus with 6 samples.

Results

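Chemokine receptors are membrane proteins with which leukocytes sense chemokines, the secreted proteins that guide their movement. Here they are the 10 genes, measured by 16 probe sets, whose single symbol in the array's annotation begins with CCR, CXCR or XCR and a digit, out of 13009 named genes and 38439 probe sets. They were CXCR4, CXCR5, CXCR7, CCR4, CCR6, CCR7, CCR8, CCR8L, CCR9 and XCR1. Most couple to inhibitory G proteins, which turn a gradient of ligand into directed migration and integrin adhesion. In B cells, CXCR4 is known for holding precursors near stromal cells that make CXCL12, and CXCR5 and CCR7 for placing mature cells in follicles or at their border with the T cell zone. The roles given here for single receptors are known mainly from mouse and human.

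RNA came from cells of the bursa of Fabricius, the site of B cell development in birds, of line 0 chickens aged 3 weeks. After being teased from the organ, 2000000 cells per culture spent a night on a layer of DF-1 chicken fibroblasts, and were then washed off the adherent layer. In the SCA2 group (3 arrays) the layer was SCA2Flag-DF1, which carries tagged stem cell antigen 2, a lipid-anchored surface protein encoded by LY6E. In the control group (3 arrays) the layer was Vector-DF1. All 6 cultures had the same medium with 4% serum at 37 °C and 5% CO2. The labels call the replicates biological without saying whether each used its own birds, and the p-values therefore measure the spread among these arrays, which may be technical. Arrays are numbered by replicate, as SCA2 1 or control 1. The comparison asks which transcripts of the bursal cells change on a layer that displays SCA2, relative to the vector layer.

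The values are RMA intensities, given here as log2, and a change is SCA2 minus control. A gene was called higher or lower when its p in limma, adjusted over all 38439 probe sets by the Benjamini-Hochberg method, was below 0.05. Where a gene had several probe sets, the brightest stands for it. Intensities of different probe sets are not comparable as levels, so each was set against itself and against a background mark of 4.92. Under it lay the means over all arrays of 95% of 689 probe sets. These were chosen by their names, which mark no chicken transcript cluster, and not by their intensity. Values of single arrays were set against the same mark. Sums over marker lists and differences from the B cell marker mean combine probe sets, and are compared only between arrays. The brightest genes weigh most in such a sum. In this study many genes differed, with 35.3% of all probe sets called, 18.2% higher and 17.1% lower. Over named genes the shares were 47% called, 26.2% higher and 20.8% lower, and the groups did not overlap in 61.3%. CD79B, a chain of the B cell receptor complex and a defining B cell marker, was bright in both groups, at 11.39 ± 0.13 on the SCA2 arrays and 12.75 ± 0.04 on the control arrays (SD, n = 3 each), and was called lower (change -1.35, limma adjusted p = 6.0e-05). LY6E in the recovered cells does not check the monolayer's label. Its brightest probe set averaged 8.79 ± 0.48 on the SCA2 arrays and 10.05 ± 0.76 on the control arrays, with overlapping groups (change -1.26, limma adjusted p = 0.0415). That call was lost without control 2 (change -0.92, adjusted p = 0.104), control 3 (0.11), SCA2 1 (0.123) or SCA2 2 (0.113), with a robust fit (0.099) and with log2(intensity + 16) (0.0575), and the other 3 probe sets, all below the background mark, were not called.

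Of the 10 receptors, 6 were called lower, 1 was called higher and 3 did not pass the test, against 20.8% of named genes called lower and 26.2% called higher. Among named genes with a mean above the background mark those shares were 22.9% lower and 31% higher. The median receptor changed by -0.40 (log2), against -0.01 over all named genes. CXCR4, CCR6 and CCR8 fell by 2.10-fold or more, and CXCR5 and CCR9 by small amounts near background. CCR4 was called lower by an amount that cannot be read, and CXCR7 rose, a call lost with some arrays left out. The groups did not overlap for these 7 genes of 10, against 61.3% of named genes. All falls are relative to the other genes of an array, and scaling to the spiked controls described at the end turned those of CXCR5, CCR9 and CCR4, and on 1 of its 2 scales that of CCR8, to rises. On those scales CXCR4 changed by -0.72 or -0.09 and CCR6 by -0.82 or -0.19. In bulk RNA, fewer cells of a type and less RNA per cell cannot be told apart. The count of called receptors was 4 without SCA2 replicate 1 and 4 without SCA2 replicate 3. In that order, 9875 and 10211 of all 38439 probe sets were then called, against 13557 with every array kept.

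**Figure D1:**
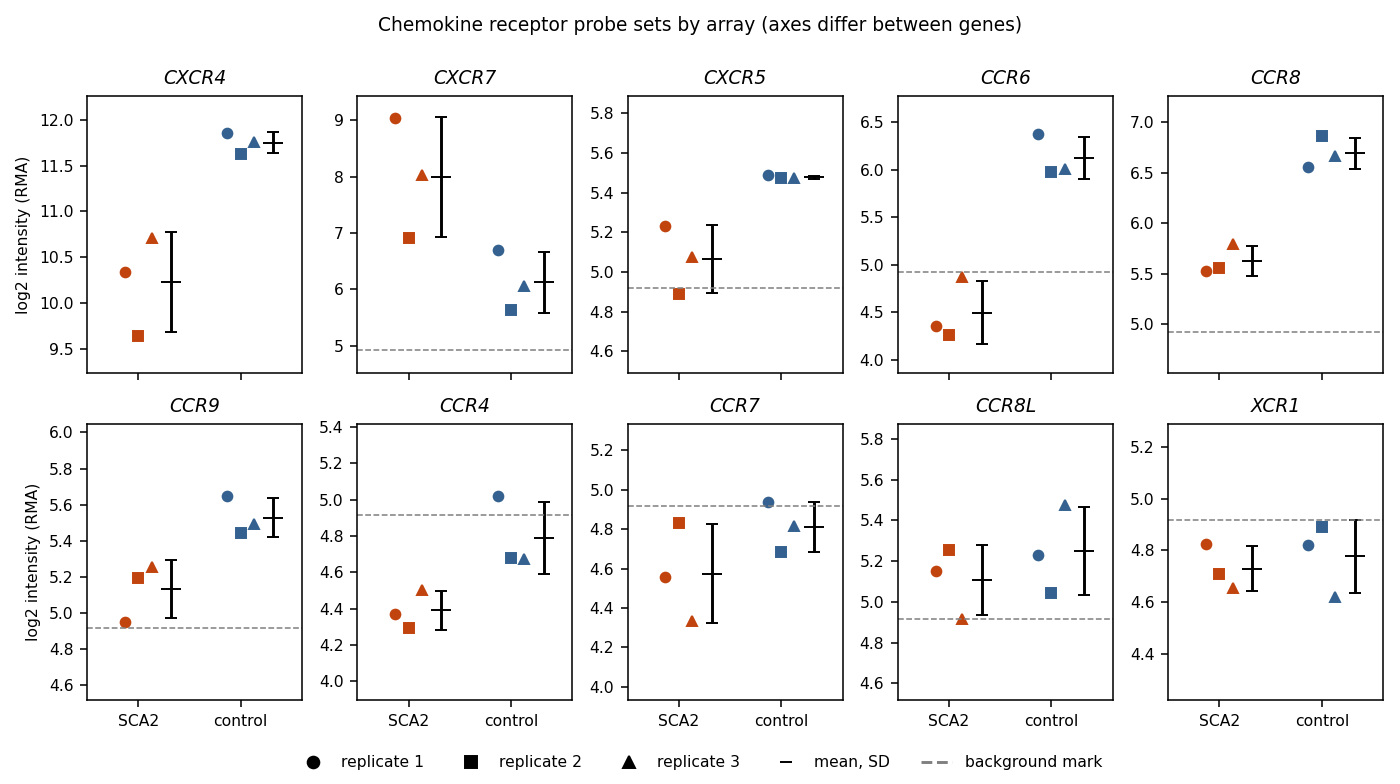
Log2 RMA intensity of the brightest probe set of each chemokine receptor on the 3 SCA2 arrays and the 3 control arrays, with the group mean and SD beside the points and the background mark of 4.92 as a dashed line where it falls within the axis. CXCR4, CCR6 and CCR8 lie lower on every SCA2 array and CXCR7 higher, while the groups overlap for CCR7, CCR8L and XCR1.

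The receptors of CXCL12 moved in opposite directions. CXCR4, the signalling receptor of this ligand, gave log2 readings of 10.34, 9.64 and 10.71 on the SCA2 arrays, against 11.86, 11.63 and 11.76 on the control arrays. Every SCA2 array was below every control array, and SCA2 2 was the lowest. CXCR4 averaged 10.23 ± 0.54 with SCA2 and 11.75 ± 0.12 in control (SD, n = 3 each), a change of -1.52 (SE 0.25), which is 2.87-fold lower (limma adjusted p = 0.0028).

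CXCR7, also named ACKR3, binds CXCL12 without coupling to G proteins and removes it from the surroundings of the cell. Its log2 intensities were 9.03, 6.92 and 8.03 on the SCA2 arrays, against 6.70, 5.63 and 6.05 on the control arrays. The groups did not overlap, but the lowest SCA2 array (SCA2 2) stood close to the highest control array (control 1). The means were 7.99 ± 1.06 with SCA2 and 6.13 ± 0.54 in control (SD, n = 3 each), a change of 1.87 (SE 0.51, 95% interval 0.66 to 3.08), or 3.65-fold higher (limma adjusted p = 0.0271). Leaving out control 2 (limma adjusted p = 0.0832), control 3 (0.075), SCA2 1 (0.0559) or SCA2 3 (0.076) ended the call, as did a robust fit with a variance trend (0.0698). In both groups replicate 1 was highest and replicate 2 lowest. With a block for replicate number the limma adjusted p was 0.0012, though the replicate numbers were not taken as pairs.

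CXCL12 itself has 4 probe sets, and they disagreed. The brightest measured 9.79, 9.70 and 9.74 on the SCA2 arrays and 9.26, 9.34 and 9.30 on the control arrays, a rise of 0.45 (SE 0.07; limma adjusted p = 0.0025). Another fell by 0.70 (SE 0.11; limma adjusted p = 0.0023), with means of 6.74 with SCA2 and 7.45 in control. The other two changed by -0.26 and 0.06 and were not called. No single direction can therefore be given for the ligand's transcript.

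CXCR5, the follicle-homing receptor of B cells, was dim. It gave log2 readings of 5.23, 4.89 and 5.07 on the SCA2 arrays, against 5.49, 5.47 and 5.47 on the control arrays. The control arrays were nearly alike, all SCA2 arrays lay below them, and SCA2 2 was under the background mark. The change was -0.41 (SE 0.10; limma adjusted p = 0.0155). The call, though not the size, was lost without SCA2 3 (change -0.42, adjusted p = 0.0518), and cyclic loess normalization also ended it (change -0.32, adjusted p = 0.0596).

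Genes of the ligand family of CXCR5 were also lower. CXCL13L2, a chicken gene named as a relative of CXCL13, measured 6.06, 6.32 and 6.63 on the SCA2 arrays and 8.10, 8.88 and 8.40 on the control arrays, a change of -2.12 (SE 0.22; limma adjusted p = 3.4e-04). The groups were far apart on every array. CXCL13L3 changed by -1.15 (SE 0.20; limma adjusted p = 0.0042), and its dimmer probe set, below the background mark throughout, by -0.12 without a call.

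CCR6, the receptor of CCL20 on B cells and other lymphocytes, gave log2 readings of 4.35, 4.26 and 4.87 on the SCA2 arrays, against 6.37, 5.97 and 6.01 on the control arrays. All 3 SCA2 arrays were below the background mark and all 3 control arrays above it. CCR6 was at least 2.3-fold lower when SCA2 arrays below the mark were set at the mark, with a fitted change of -1.62 (SE 0.18; limma adjusted p = 5.1e-04). CCL20 fell as well, with 6.72, 6.88 and 6.96 on the SCA2 arrays and 8.66, 8.63 and 8.63 on the control arrays (change -1.78, SE 0.08; limma adjusted p = 2.8e-05). Receptor and ligand were thus both lower, each without overlap between groups.

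CCR8, a receptor of CCL1 known from regulatory and skin-homing T cells, was lower by both of its probe sets. The brighter measured 5.52, 5.56 and 5.79 on the SCA2 arrays, against 6.56, 6.86 and 6.66 on the control arrays. The groups were separated by more than their own ranges. The change was -1.07 (SE 0.11), or 2.10-fold lower (limma adjusted p = 3.9e-04), and the other probe set changed by -1.03 (SE 0.12; limma adjusted p = 6.6e-04). CCL1 measured 5.59, 5.82 and 5.55 on the SCA2 arrays and 6.56, 6.72 and 6.76 on the control arrays, a change of -1.03 (SE 0.10; limma adjusted p = 3.0e-04). CCL1 too had no array of one group within the range of the other.

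CCR9, which directs lymphocytes to the gut, measured 4.95, 5.19 and 5.26 on the SCA2 arrays, against 5.65, 5.44 and 5.49 on the control arrays. The groups did not overlap, but SCA2 3 and control 2 were close. The change was -0.40 (SE 0.11; limma adjusted p = 0.0247). It no longer passed the test without control 1 (change -0.33, adjusted p = 0.0645), control 3 (-0.41, 0.056) or SCA2 1 (-0.30, 0.076) or with cyclic loess normalization (-0.31, 0.0501). Its dimmer probe set was below the background mark on all arrays and was not called.

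CCR4, a T cell receptor for CCL17, gave log2 readings of 4.37, 4.29 and 4.50 on the SCA2 arrays, against 5.02, 4.68 and 4.67 on the control arrays. Only control 1 exceeded the background mark, so no fold is given and the size of the change cannot be read. The fitted change was -0.40 (SE 0.12; limma adjusted p = 0.0333). The call ended without control 1 (change -0.29, adjusted p = 0.057), SCA2 1 (-0.39, 0.0955), SCA2 2 (-0.35, 0.0945) or SCA2 3 (-0.46, 0.0516), with a second quantile normalization (-0.33, 0.068), with cyclic loess (-0.31, 0.0815) and with the mean of its probe sets (-0.21, 0.0764). CCL17 varied widely, at 4.84, 4.72 and 5.20 on the SCA2 arrays and 5.13, 6.88 and 5.70 on the control arrays, with overlap. Its change of -0.98 (SE 0.40) was not called (limma adjusted p = 0.101), though it was without control 1 (adjusted p = 0.0237).

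CCR7, CCR8L and XCR1 did not pass the test, and their groups overlapped. CCR7, which guides lymphocytes and dendritic cells toward CCL19 and CCL21, measured 4.56, 4.83 and 4.33 on the SCA2 arrays, against 4.94, 4.68 and 4.81 on the control arrays. These values lay at or below the background mark except for control 1, and the 95% interval of the change was -0.56 to 0.09. CCL19 was called lower, at 5.06, 5.22 and 5.09 on the SCA2 arrays and 5.52, 5.79 and 5.59 on the control arrays (change -0.51, SE 0.10; limma adjusted p = 0.0055).

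XCR1, a receptor of cross-presenting dendritic cells, was below the background mark on all 6 arrays, at 4.83, 4.71 and 4.66 with SCA2, against 4.82, 4.89 and 4.62 in control. Nothing about a change in the transcript can be read from such values, and the 95% interval was -0.27 to 0.18. Its ligand gene XCL1 was also below the mark throughout, with a change of -0.43 that was not called. CCR8L, a gene named for its likeness to CCR8, measured 5.15, 5.25 and 4.92 on the SCA2 arrays and 5.23, 5.05 and 5.48 on the control arrays, with a 95% interval of -0.46 to 0.18.

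**Figure D2:**
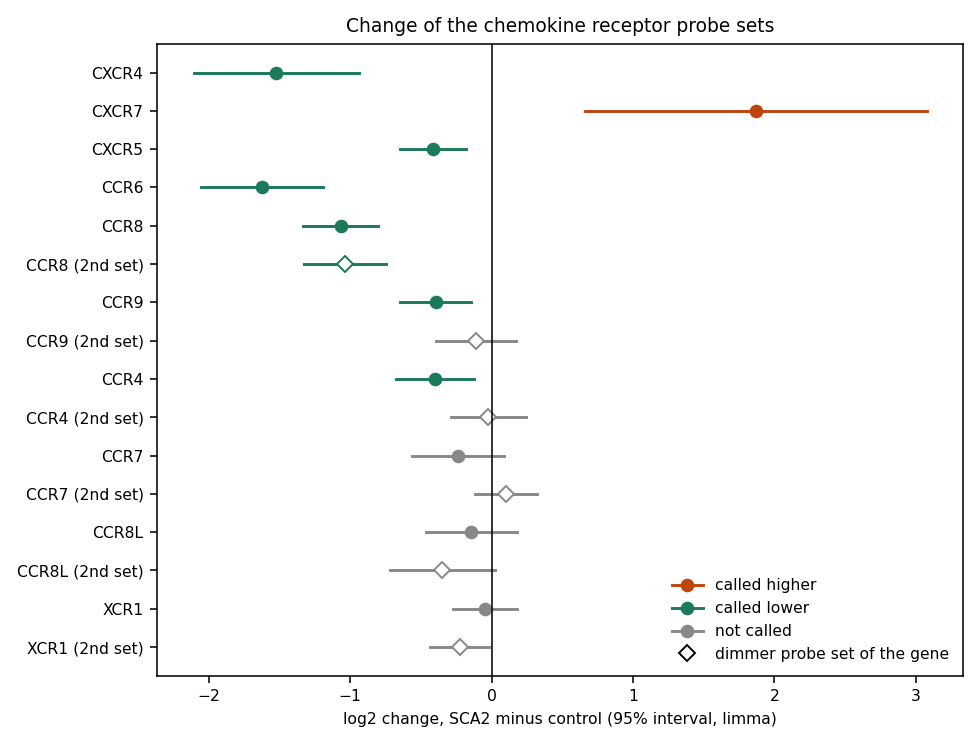
Log2 change (SCA2 minus control) with its 95% interval from limma for all 16 chemokine receptor probe sets, coloured by call, with diamonds for the dimmer probe set of a gene. 8 probe sets were called, 7 of them lower, and among genes with a pair of probe sets CCR8 alone had both called.

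Counted over probe sets, 8 of 16 were called, 7 lower and 1 higher, against 17.1% of all probe sets lower and 18.2% higher. Genes with a pair of probe sets included 5 in which one bears the suffix A1. These 5 lay between 3.16 and 4.72 on every array, below the background mark, and limma called 0 of them, with 1 at an unadjusted p below 0.05 (XCR1). CCR8, CX3CR1 and CCR4 follow each other among protein-coding genes in the RefSeq gene order of assembly GRCg7b, as do CCR8L and XCR1. CX3CR1, the fractalkine receptor of phagocytes, changed by -0.82 without a call (limma adjusted p = 0.0996). CX3CR1 varied within groups, at 6.08, 6.05 and 6.74 on the SCA2 arrays and 6.46, 7.77 and 7.09 on the control arrays, and was called without control 1 (adjusted p = 0.0216).

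**Figure D3:**
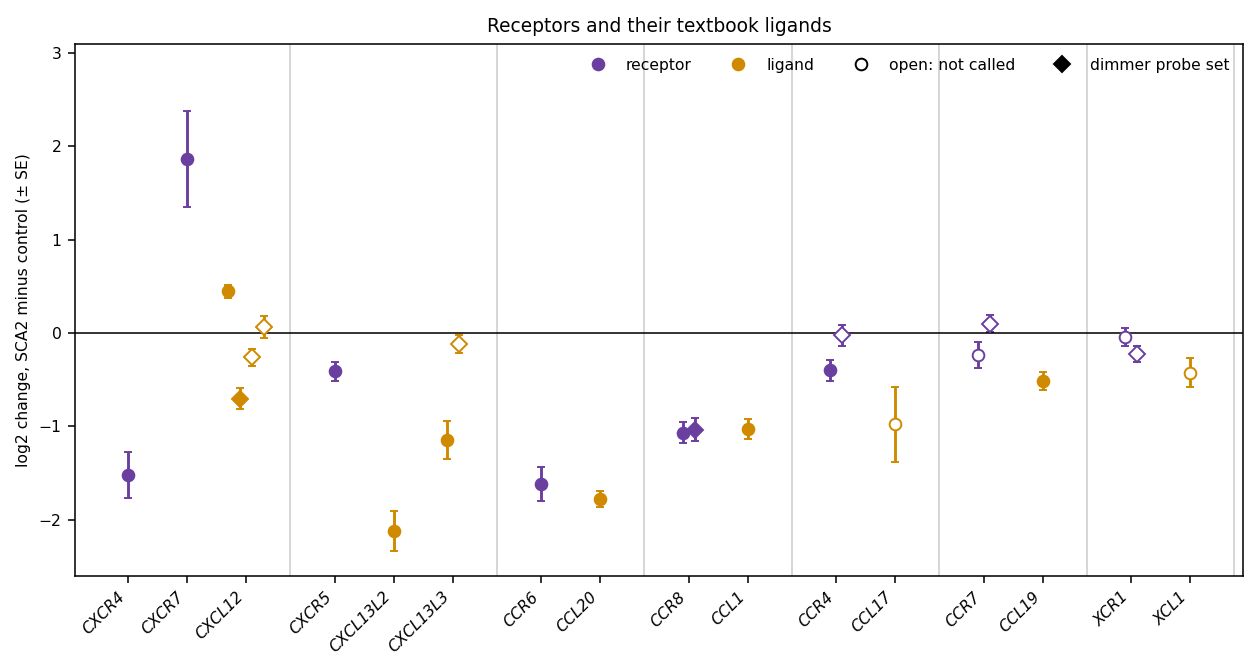
Log2 change (SCA2 minus control, ± SE) of receptors and of the genes of their textbook ligands, 1 point per probe set, filled where called and open where not. CXCR4 and CXCR7 lie on opposite sides of 0 and the 4 probe sets of CXCL12 spread around it, while receptor and ligand are both lower for CXCR5, CCR6 and CCR8.

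Over the whole chemokine ligand list, 8 of 15 genes were called lower and 2 higher, against 20.8% and 26.2% of named genes, with a median of -0.79. The largest falls were those of IL8L1 (-2.46, SE 0.18) and CXCL13L2, and IL8L2, like IL8L1 a gene named for interleukin 8, the chemokine of neutrophils, fell by 1.25 (SE 0.20), with limma adjusted p of 9.5e-05 for IL8L1 and 0.0024 for IL8L2. CCLL4 changed by -0.79 (limma adjusted p = 4.7e-04). CCL4 was split, with its brightest probe set higher by 0.32 (limma adjusted p = 0.0195) and the other lower by 0.66 (adjusted p = 0.0014). The rise of CCL4 lost its call without SCA2 1 (adjusted p = 0.058), SCA2 2 (0.0591) or SCA2 3 (0.0547) and with cyclic loess (0.0702).

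Receptors of other chemoattractants gave 5 of 11 genes lower and 1 higher, against 20.8% and 26.2% of named genes, with a median of -0.51. PTAFR, the receptor of platelet-activating factor, changed by -2.18 (SE 0.22), with means of 6.09 with SCA2 and 8.27 in control. GPR35 changed by -1.71 (SE 0.16), P2RY8, which in human confines germinal centre B cells, by -1.57 (SE 0.24), and GPR183, the oxysterol receptor that positions B cells, by -1.22 (SE 0.35). P2RY10 changed by -0.51 (SE 0.14), and limma gave the 5 adjusted p-values of 2.4e-04 to 0.031. A second probe set of P2RY8 changed by -0.73 without a call. The calls of GPR183 (adjusted p up to 0.073, without control 1) and P2RY10 (up to 0.0747, without control 3) were lost in some sets of 5 arrays, namely GPR183 also without SCA2 2 and P2RY10 also without control 1, SCA2 2 or SCA2 3.

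The gene of this list that rose was ACKR2, an atypical receptor that, like CXCR7, binds chemokines without G protein signalling and clears them. It measured 7.42, 7.18 and 7.21 on the SCA2 arrays, against 6.24, 6.48 and 6.21 on the control arrays. The groups were clearly apart. The change was 0.96 (SE 0.11; limma adjusted p = 5.3e-04), a second probe set changed by 0.83 (adjusted p = 0.0032), and another, below the mark on all arrays, was not called. Both atypical scavengers measured, CXCR7 and ACKR2, were thus called higher, a pairing chosen after their values were seen. The call of ACKR2 held in all 14 alternative analyses, while that of CXCR7 held in 10 of 15.

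Among 52 genes of signalling and migration downstream of the receptors, 26 were called lower and 9 higher, against 20.8% and 26.2% of named genes, with a median of -0.26. Those lowered most were RGS1, a regulator that shortens G protein signals (-1.88, SE 0.36), DOCK2 (-1.81, SE 0.12) and DOCK8 (-1.67, SE 0.08), exchange factors for Rac and Cdc42, ITGB2, the beta chain of leukocyte integrins (-1.72, SE 0.18), RAC2, the Rac of blood cells (-1.66, SE 0.12), and PTK2B, a focal adhesion kinase (-1.63, SE 0.08). Each had a limma adjusted p of 0.0061 or less. The inhibitory G protein subunit genes GNAI1, GNAI2 and GNAI3 changed by -0.11, -0.02 and 0.15 and were not called. Chosen after their values were seen, the 3 that rose most were RGS2 (1.40), GRK5, a kinase that desensitizes receptors (1.16), and RGS13 (0.93).

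**Figure D4:**
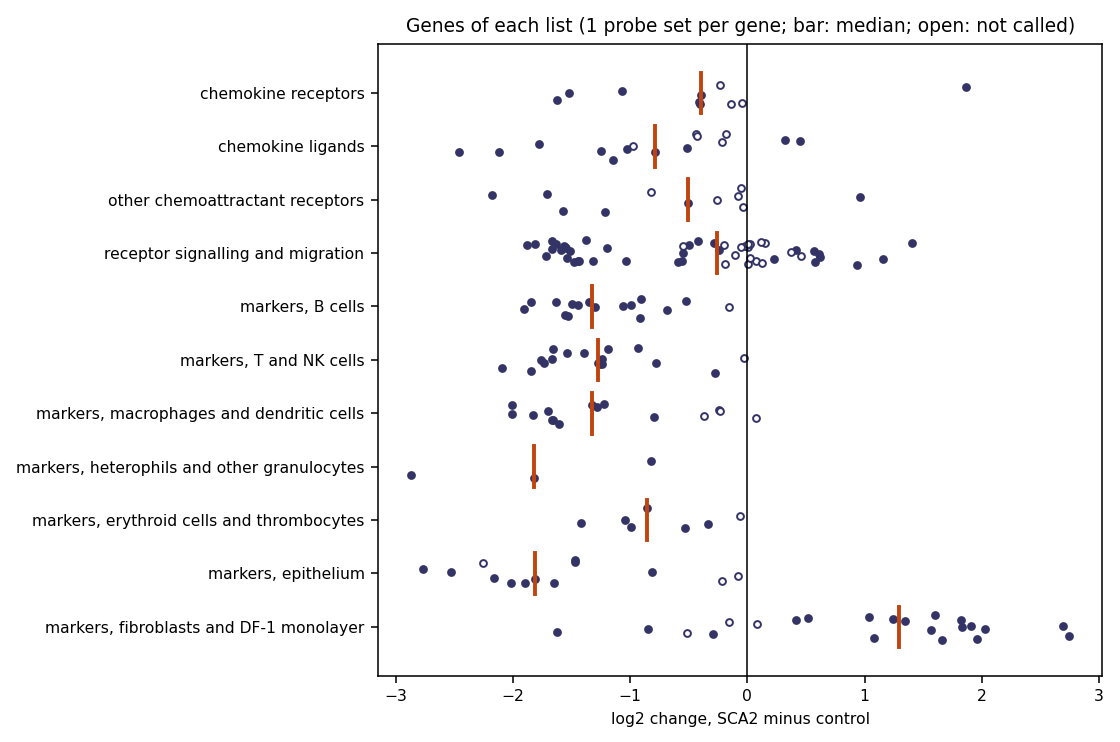
Log2 change (SCA2 minus control) of each gene in the receptor, ligand, signalling and cell type marker lists, 1 point per gene, filled where called, with a bar at the list's median. The receptors' median of -0.40 lies between the medians of the B cell markers at -1.33 and the fibroblast markers at 1.29. Of the 10 receptors, 3 had both group means below the background mark, where the size of a change cannot be read. The medians therefore do not rank the lists by size of change. Among the receptors, 1 gene is at 1.87.

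Markers of cell types that carry these receptors moved on the same arrays. Of 16 measured B cell markers 15 were called lower, against 20.8% of named genes here and in the lists that follow, with 2 below the background mark, and their summed intensity ran from 17930 to 20381 on the SCA2 arrays and from 44643 to 46250 on the control arrays. Of 17 T and NK cell markers 16 were lower, with 1 below the mark and summed intensities of 4542 to 4589 with SCA2 and 11870 to 13726 in control. Of 15 markers of macrophages and dendritic cells 11 were lower, with 2 below the mark and sums of 3992 to 6009 with SCA2 and 11181 to 15952 in control. The named examples were VPREB3 (-1.91) and BTK (-1.63) for B cells, CD28 (-2.10) and CD4 (-1.74) for T cells, and CD36 (-2.01) for macrophages. The part of these markers in the fall of the receptors was not tested.

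Other cell types were marked as well. Against the same 20.8%, the 3 markers of heterophils and other granulocytes were all called lower, as were 6 of 7 of erythroid cells and thrombocytes and 10 of 13 of epithelium, with medians of -1.82, -0.85 and -1.81. Their summed intensities were 492 to 558 with SCA2 and 2005 to 3039 in control for heterophils, 24728 to 25806 with SCA2 and 34129 to 37678 in control for erythroid cells and thrombocytes, and 3803 to 8961 with SCA2 and 12904 to 25834 in control for epithelium. Of 22 fibroblast markers 16 were called higher and 3 lower, against 26.2% and 20.8% of named genes, with 2 below the mark, and summed intensities of 61388 to 63365 on the SCA2 arrays and 33142 to 33498 on the control arrays. COL5A1 (2.75), COL1A2 (1.96) and THY1 (1.83) were among them. The mean of the fibroblast markers stood at 0.99, 1.01 and 1.01 above the control mean on SCA2 1, 2 and 3, while CXCR7 was at 9.03, 6.92 and 8.03 on the same arrays. The part of fibroblast RNA in the rise of CXCR7 was not tested.

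CXCR4, CCR8, CCR9 and CXCR7 were above the background mark on all 6 arrays, CCR9 narrowly on SCA2 1 (4.95). They were also set against the mean of the B cell markers of the same array. The difference between CXCR4 and that mean was 1.91, 1.26 and 2.13 on the SCA2 arrays and 2.23, 1.93 and 2.08 on the control arrays, a shift of -0.32 with overlap (exact permutation test, two-sided, p = 0.4). CCR8 shifted by 0.14 with overlap (exact permutation p = 0.2). CCR9 shifted by 0.81 and CXCR7 by 3.07, both without overlap (exact permutation p = 0.1 for each). Receptors at or near the mark also shifted up without overlap, XCR1 by 1.16, CCR8L by 1.06, CCR7 by 0.97, CCR4 by 0.81 and CXCR5 by 0.80. CCR6 shifted by -0.42 with overlap. The shift of CCR9, itself near the mark, therefore cannot be told from those of receptors with no readable change. Each shift is the receptor's own change minus that of the B cell marker mean. That mean stood at -1.24, -1.29 and -1.09 from its control mean on SCA2 1, 2 and 3. A receptor without change thus shifts up, and the 3.07 of CXCR7 includes the same amount. An exact p of 0.1 is the smallest that 3 against 3 arrays can give, so this test cannot pass 0.05, and adjusted over the 10 receptors computed no permutation p was below 0.143.

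The array's spiked control RNAs were lower on the SCA2 arrays. The 36 probe sets of the poly-A controls averaged 10.27 with SCA2 and 11.07 in control, a difference of -0.80, and the 27 of the hybridization controls averaged 9.57 with SCA2 and 11.00 in control, a difference of -1.43. Setting the arrays to equal spike levels moves the median of all probe sets up by those amounts, and CXCR4 then changed by -0.72 or -0.09, CCR6 by -0.82 or -0.19 and CCR8 by -0.27 or 0.37, while CXCR5, CCR9 and CCR4 turned positive and CXCR7 reached 2.67 or 3.30. The labels do not say how much spike was added, and its part in the changes was not tested. Falls of single receptors are therefore given relative to the other genes on the array.

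The genes whose profile over the 6 arrays lay nearest to that of CXCR4, after each gene was centred on its own mean, were LPAR5 (distance 0.40 in log2 units, change -1.29), P2RY8 (0.41, change -1.57) and KCTD12B (0.44, change -1.41). Nearest to CXCR7 were UNC119 (0.59, change 1.84), COLEC10 (0.71, change 1.59) and SLC35F5 (0.76, change 1.76). CXCR7 had its highest SCA2 value on SCA2 1 and its lowest on SCA2 2, whereas CXCR4 was highest on SCA2 3 and lowest on SCA2 2.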

How the data were processed

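RNA of bursal cells was measured on 6 Affymetrix chicken arrays, 3 SCA2 and 3 control, grouped by the sample titles. The authors deposited one intensity per probe set on a linear scale, made with RMA per the submitters' processing notes; its version and settings are not stated. RMA corrects background, equalizes the arrays' distributions and summarises probes, so a shift common to all genes is not seen. Intensities ran from 4.28 to 20715. Their log2 was taken, 96 array controls were left out, and limma 3.58.1 in R 4.3.3 was fitted to all 38439 probe sets with 1 term for the layer and Benjamini-Hochberg adjustment. Figures used Python 3.11.15 and matplotlib 3.10.9.

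Symbols come from the platform annotation, updated by gene identifier to RefSeq names: 27168 probe sets had 1 symbol, 177 several (not named) and 11094 none. Updating added 0 members. The members and lists were chosen with earlier results of these data known. All receptors were named. From the other lists, partner ligands and up to 6 called genes of largest change were eligible. Exceptions include the GNAI genes and CX3CR1, which were not called, and the genes marked as chosen after their values were seen. The 3 nearest profiles were named for the brightest and the most changed receptor. The number of arrays limits precision. The procedure was tested on simulated data with few changed probe sets, independent noise and no shift common to an array. That test does not cover data with as many changes as here. Results were recomputed with a block for replicate number, 3 other normalizations, a filter on dim probe sets, a robust fit with a variance trend, weighted arrays, log2(intensity + 16), the mean of a gene's probe sets, and each array left out. Scaling to the spiked controls was chosen after seeing the data. The labels give no batch.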

Additional observations from a re-analysis of the deposited data

How the results depend on the processing

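CXCR4, CCR6 and CCR8 kept their direction and call under every alternative analysis that gave a value, other than scaling to spiked controls, with changes of -1.76 to -1.23, -1.81 to -1.14 and -1.15 to -0.87 and limma's Benjamini-Hochberg adjusted p at most 0.0135. CXCR4, CXCR7 and CCR8 passed the filter on dim probe sets, while CCR6 and the other receptors did not and have no value there. Of the 10 receptor genes 7 were called, but 4 with cyclic loess and 3 under the dim filter, which kept 3 of them, and 4 to 6 with an array left out. Of the 16 receptor probe sets 8 were called, but 5 with cyclic loess, 4 under the dim filter, which kept 4, and 5 to 7 with an array left out. Over all 38439 probe sets 13557 were called, against 12810 with cyclic loess and 9875 to 13083 with an array left out. Under the dim filter 11406 of the 19219 probe sets kept were called. The filter's construction sets only how many receptors remain, and the cause under cyclic loess was not tested. XCR1, never called, turned to 0.018 with a second quantile normalization and 0.043 with cyclic loess, and ran from -0.12 to 0.0098 with an array left out. Scaled to the poly-A controls, CCR7 (0.56), CXCR5 (0.39), CCR8L (0.66), XCR1 (0.75), CCR9 (0.40) and CCR4 (0.40) turned positive. Scaled to the hybridization controls, CCR8 (0.37), CCR7 (1.20), CXCR5 (1.02), CCR8L (1.29), XCR1 (1.39), CCR9 (1.04) and CCR4 (1.03) did. No test was made on these scales, since the spikes' own spread is shared by every gene. The other lists' counts stayed within 1.5 times, at 9 to 12 ligands, 4 to 7 other receptors and 30 to 36 signalling genes. Deviations from the group means correlated between arrays of one replicate number with r = 0.41, 0.12 and 0.04. Between arrays of different numbers r ran from -0.45 (SCA2 1 with control 2) to 0.33 (SCA2 3 with control 2). The numbers were not taken as pairs. With the replicate block, 14531 probe sets, 7 receptor genes, 8 receptor probe sets, 11 ligands, 6 other receptors and 36 signalling genes were called. XCL1 was called under the block (limma adjusted p = 0.0438) and with array weights (0.0334).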
